A study of Mus musculus with 8 samples.

Results

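The melanocortin and neuropeptide Y (NPY) system of the arcuate nucleus was described through 10 genes, of 34797 gene names on the array, namely the peptides Agrp, Npy, Pomc and Cartpt, the melanocortin receptors Mc3r and Mc4r with their accessory protein Mrap2, and the NPY receptors Npy1r, Npy2r and Npy5r. The members were taken by gene symbol, as every non-control probe whose gene name in the array files is 1 of these 10. This gave 13 of the 55681 probes on the array, with 3 probes for Mrap2, 2 for Npy2r and 1 for each other gene. The probes were read in the hypothalamus (HT) of 8 adult male C3H/HeN mice, 1 array per mouse. The MS group held 4 mice (5.3, 7.1, 7.2 and 7.6) raised under maternal separation with unpredictable stress of the dam over PND 2 to 14, and the control group held 4 mice (6.2, 8.2, 8.4 and 8.5) of the control condition. Mice of both groups were weaned at PND 21 into cages of 1 condition, had worked for palatable milk in operant tests and were deprived of food before sacrifice, so no fed HT stands beside these values. The comparison asks whether the mRNA of this feeding circuit differed in fasted adults after MS.

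The arcuate nucleus at the base of the HT holds neighboring neuron types with opposed effects on feeding. One type makes AgRP and NPY and drives eating, and the other makes POMC, which is cut into α-MSH and other peptides that restrain it, and in part also CART. In rodents, fasting is known to raise Agrp and Npy mRNA and to lower Pomc mRNA. α-MSH activates the receptors MC3R and MC4R, AgRP opposes it there, and NPY acts on the Y1, Y2 and Y5 receptors.

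The 4 peptide mRNAs were read through short stretches of their transcripts, printed 5′ to 3′ in the sense of the mRNA, in mouse build mm9. For 3 of them the probe lies in the coding part, and its capitals mark pairs of adjacent codons for basic residues, the kind of site at which prohormone convertases can cut a precursor, although not every such pair is used. The sequences are shown since they fix which part of each precursor a value stands for. The Npy probe, chr6:49773743-49777505 on the plus strand, is split over an intron and thus reads spliced mRNA, and its pair follows the end of the mature peptide. The Pomc probe, chr12:3960413-3960472 on the plus strand, covers the end of the precursor, and the stop codon tga begins at its base 54. The Cartpt probe, chr13:100668967-100669956 on the minus strand, is also split over an intron and holds 2 pairs.
Npy: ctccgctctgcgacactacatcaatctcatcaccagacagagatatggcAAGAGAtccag
Pomc: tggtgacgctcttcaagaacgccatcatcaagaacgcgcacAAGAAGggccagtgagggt
Cartpt: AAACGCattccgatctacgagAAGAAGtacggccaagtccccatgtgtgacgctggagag

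Of the remaining probes, 4 held the letters AATAAA, the usual polyadenylation signal that precedes the end of an mRNA, searched in the transcript's sense only. It was present in 10.1% of all 55681 probes, and its place in a probe does not show that it is used. Stretches of at most 30 bases around it are shown with these letters in capitals, as the parts of these 4 transcripts, among them the Npy2r probe whose groups did not overlap, that the motif search picked out. They come from Agrp (chr8:108090600-108090659, minus strand), Mc3r (chr2:172076555-172076614, plus strand), the probe A_55_P2105135 of Mrap2 (chr9:87078820-87078879, plus strand) and the probe A_51_P311919 of Npy2r (chr3:82342675-82342734, minus strand).
Agrp: gcaggggatgagAATAAAggatgggacggt
Mc3r: tgcttgggagatAATAAAggctttggtttc
Mrap2: cttaagttgcatAATAAAtgcatttgatcg
Npy2r: gtactgaaaaggAATAAAacaccagaag

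All 13 probes were well above background on all 8 arrays and no spot was saturated. Levels below are log2 values of the background-subtracted signal over the 75th percentile of the same array, so 0 marks that percentile, and the level of one probe says nothing about that of a different probe. In this fasted HT no difference of MS from control mice passed the test for any of the 13 probes after adjustment over all 37313 tested probes (limma, Benjamini-Hochberg, threshold 0.05), nor did it for any other probe on the array (0% called). The adjusted p was 0.976 for 12 of the 13 probes and 0.991 for Cartpt. Without adjustment, 2 of the 13 probes had a limma p under 0.05, those of Npy and of Npy2r (A_51_P311919), against 3.27% of all tested probes. The values of MS and control mice did not overlap for 1 of the 13 probes, that of Npy2r, and for 2.04% of all tested probes. Counts of 2 and 1 among 13 probes are too small to set the members apart from the other probes. With 1 leading probe per gene, 7 of the 10 genes had a higher mean in MS mice and 3 a lower one, with a median log2 fold change of 0.11, against a median of 0.0074 over all tested probes. Of the 37313 tested probes, 19777 had a higher mean in MS mice, and whether the members differ from that share was not tested. The 95% intervals of all 13 differences stayed within a 2-fold change in either direction, which held for 35391 of the 37313 tested probes.

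**Figure D1:**
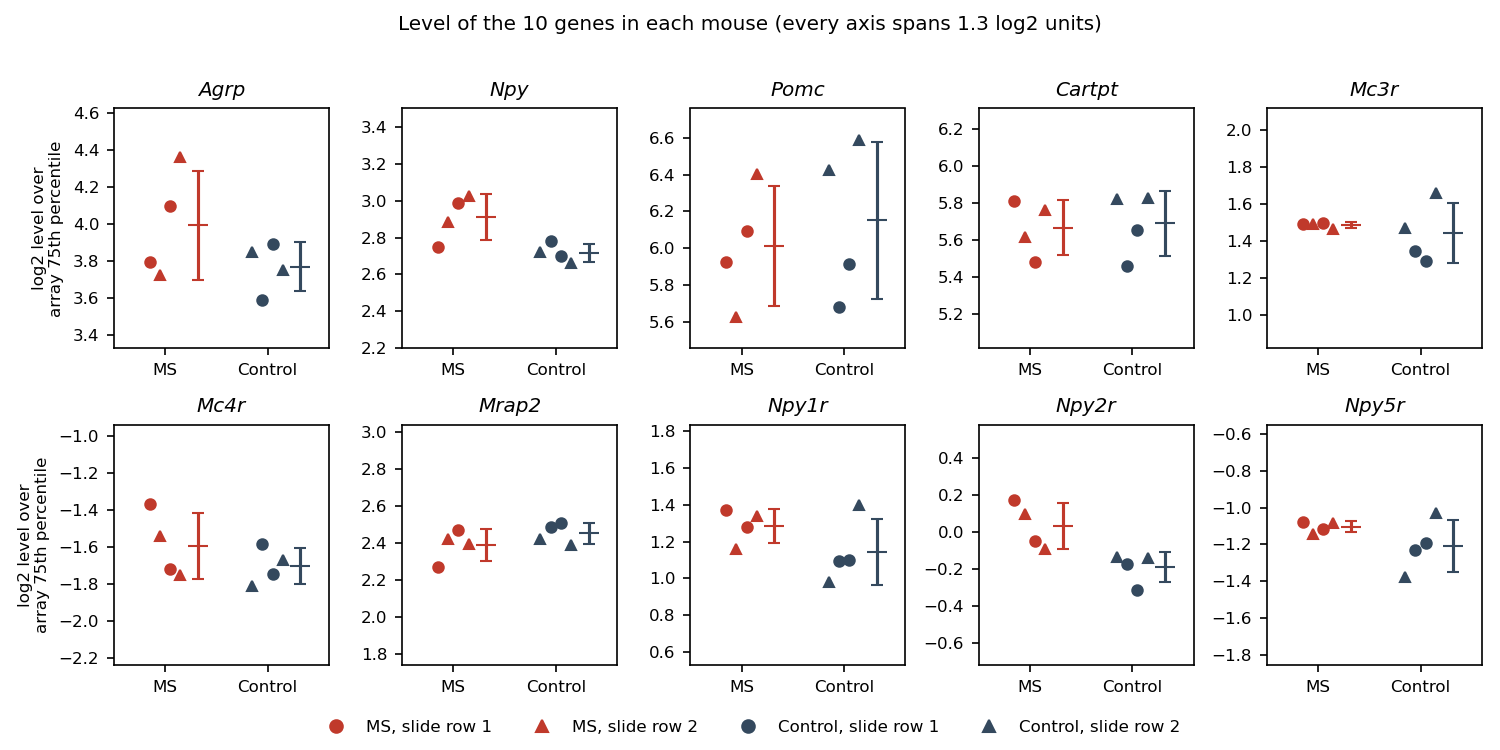
Level of each of the 10 genes by its brightest probe (y axis, log2 over the 75th percentile of the array) in each MS mouse (red, left) and each control mouse (blue, right). Circles are mice of slide row 1 and triangles of row 2, and bars give the mean and SD of 4 mice. The groups overlap for every gene except Npy2r, and Pomc has the widest range over the 8 mice, 0.96 log2 units.

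The arrays lay on 1 slide in 2 rows, with 2 MS and 2 control mice in each row. Their 75th percentile was 566 to 1012 intensity units in MS mice and 853 to 963 in control mice, and MS 7.6 was the dimmest array. All 9 marker genes of the HT fixed for the check were tested. Of these, Hcrt, the peptide of orexin neurons in the lateral HT, stood at 3.30 in MS 5.3 and 3.37 in MS 7.2, below the other 6 mice at 5.33 to 6.48, and Pmch, the peptide of melanin-concentrating hormone neurons, was also lowest in these 2 mice. Trh, the thyrotropin-releasing hormone gene, was lowest there too, at 3.34 in MS 5.3 and 3.33 in MS 7.2, and Nkx2-1, a transcription factor of the HT, was highest there, at 0.92 and 0.69. These 4 genes were singled out after their values were seen, and of the 9 markers, 3 had a log2 fold change above and 6 below 0. Of 12 pituitary genes, 10 were tested, and 9 of them had a lower mean in MS mice. The log2 of the summed level of these 10, in which the brightest genes weigh most, was 4.40 to 4.92 in MS mice. In control mice it was 4.23 to 8.03, with 8.03 in control 6.2 and at most 5.10 in the other 3. The 2 pituitary genes left out, Pou1f1 and Ghrhr, were not well above background on 4 arrays. The numbers before the dot were never shared between groups, and the sources used here do not say whether they stand for litters or cages. Within the groups they were shared, by MS 7.1, 7.2 and 7.6 and by controls 8.2, 8.4 and 8.5. The p-values treat mice as independent, also those that share a number, and measure only the spread between them.

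Within the arcuate nucleus Agrp and Npy come from the same neurons, whereas the arrays read the whole dissected HT. Both genes had a higher mean in MS mice without passing the test. Agrp encodes the antagonist of the melanocortin receptors. Its level was 3.79, 3.72, 4.10 and 4.36 in MS mice 5.3, 7.1, 7.2 and 7.6, against 3.85, 3.59, 3.89 and 3.75 in control mice 6.2, 8.2, 8.4 and 8.5. MS 7.2 and 7.6 lay above every control mouse, whereas MS 5.3 and 7.1 lay inside the control range, so the groups overlapped. The means were 3.99 ± 0.29 in MS mice and 3.77 ± 0.13 in control mice (SD, n = 4 each), a log2 fold change of 0.22 (SE 0.15, 95% interval -0.11 to 0.56, adjusted p = 0.976 with limma). The exact permutation test of this difference gave p = 0.257, two-sided. The difference was 0.21 in slide row 1 and 0.24 in row 2. It was 0.10 without MS 7.6, the mouse with the dimmest array, a change of over 1.5 times.

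Npy encodes the peptide that raises food intake through the Y1 and Y5 receptors. Its level was 2.75, 2.89, 2.99 and 3.03 in MS mice 5.3, 7.1, 7.2 and 7.6, against 2.72, 2.78, 2.70 and 2.66 in control mice 6.2, 8.2, 8.4 and 8.5. The control mice lay close together, and 3 of the 4 MS mice were above all of them, with MS 5.3 below the highest control, 8.2. The means were 2.91 ± 0.12 in MS mice and 2.72 ± 0.05 in control mice (SD, n = 4 each), a 1.14-fold difference (log2 0.19, SE 0.07, 95% interval 0.03 to 0.36). The limma p was 0.0273 before and 0.976 after adjustment, and the exact permutation test gave p = 0.0571. The difference was 0.13 in slide row 1 and 0.26 in row 2. Without MS 7.6 it was 0.16, and without MS 5.3 and MS 7.2, the mice low in Hcrt, it was 0.24 in a comparison added after seeing the data. In bulk tissue, fewer cells of a type and less RNA per cell cannot be told apart, and the same holds for more cells and more RNA.

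Over the 8 mice, Agrp and Npy had a Pearson's r of 0.717 (exact permutation p = 0.0401, adjusted p = 0.200 over 5 pairs of measures) and a Spearman's rho of 0.333 (exact permutation p = 0.428, adjusted p = 0.501). The relation rested on MS 7.6 and MS 7.2, which were highest for both genes. Without these 2 mice r was -0.44. A slide row holds only 4 mice, too few for a within-row value.

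**Figure D2:**
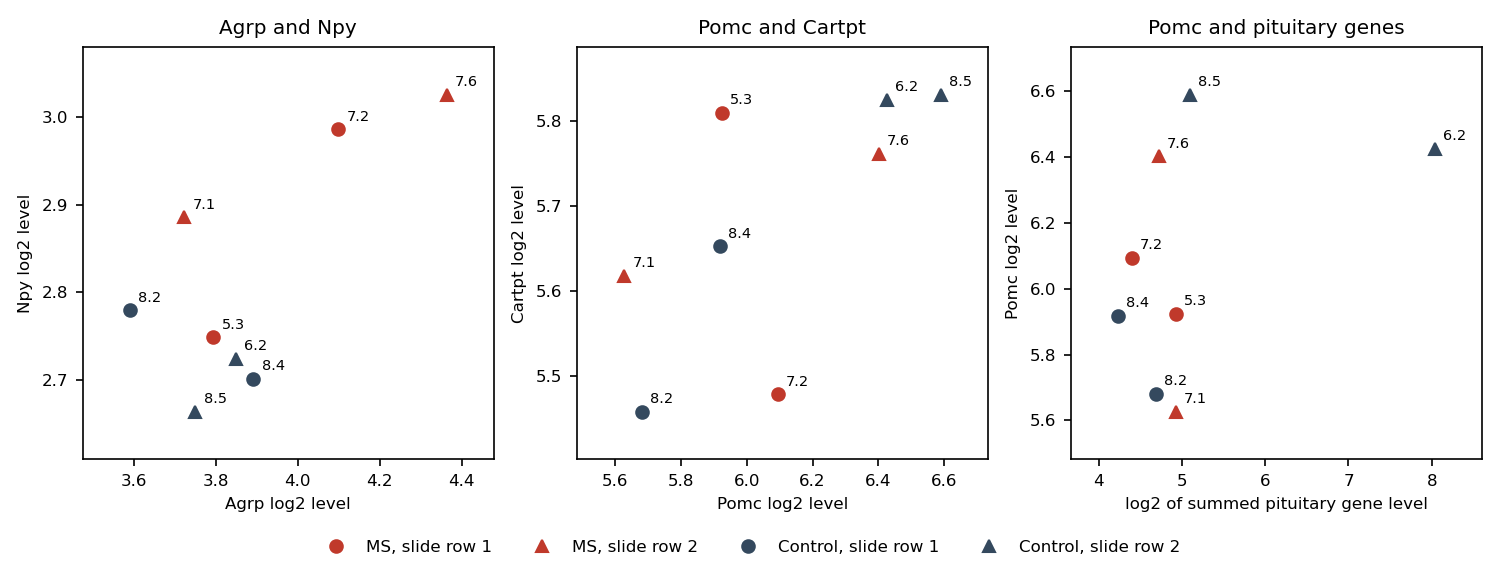
Levels of pairs of measures in each mouse (both axes in log2 units), with Npy against Agrp at left, Cartpt against Pomc in the middle, and Pomc against the summed level of 10 pituitary genes at right. Red points are MS mice and blue points control mice, circles are mice of slide row 1 and triangles of row 2, and labels are mouse numbers. MS 7.2 and 7.6 stand apart at upper right for Agrp and Npy, and control 6.2 stands apart in the pituitary level at 8.03.

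Pomc and Cartpt, the peptides that restrain feeding, had means that lay closer to each other between groups than the mice within a group. Pomc encodes the precursor of α-MSH, β-endorphin and, in the pituitary, ACTH. Its level was 5.92, 5.63, 6.09 and 6.40 in MS mice 5.3, 7.1, 7.2 and 7.6, against 6.43, 5.68, 5.92 and 6.59 in control mice 6.2, 8.2, 8.4 and 8.5. Low and high mice occurred in both groups, with the lowest in MS 7.1 and the highest in control 8.5, a 1.95-fold range over the 8 mice. The spread within groups was larger than that of 90.5% of tested probes. The means were 6.01 ± 0.32 in MS mice and 6.15 ± 0.43 in control mice (SD, n = 4 each), a log2 fold change of -0.14 (SE 0.23, 95% interval -0.68 to 0.39, adjusted p = 0.976 with limma, exact permutation p = 0.571). The sign differed between the rows of the slide, with 0.21 in row 1, where both MS mice were above both control mice, and -0.49 in row 2, where both were below. Each order hung on a narrow gap between 2 mice. In row 1 MS 5.3 was at 5.924 and control 8.4 at 5.918, and in row 2 MS 7.6 was at 6.402 and control 6.2 at 6.425. Without control 8.5 the difference was 0.0037.

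Pomc is also expressed in the pituitary, so its level stands beside that of the pituitary genes. Control 6.2, with a Gh level of 6.92 and a Prl level of 6.51, had the second highest Pomc level, while control 8.5 and MS 7.6 had the highest and the third highest Pomc levels at summed pituitary levels of 5.10 and 4.72. Gh and Prl, the growth hormone and prolactin genes, were at most 3.35 and 3.87 in the other 7 mice. Tbx19, the transcription factor of the pituitary cells that make Pomc, was at -5.49 to -4.67 in the 3 mice with the highest Pomc levels and at -5.67 to -5.12 in the other 5. Pomc and the summed pituitary level had a Pearson's r of 0.426 over the 8 mice (exact permutation p = 0.356, adjusted p = 0.445) and a rho of 0.524 (exact permutation p = 0.197, adjusted p = 0.492), and r was -0.25 without controls 8.5 and 6.2. Without control 6.2 the Pomc difference between MS and control mice was -0.05. The share of Pomc mRNA that came from pituitary tissue was not tested.

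Cartpt encodes the peptide CART, made by Pomc neurons and also by other HT neurons. Its level was 5.81, 5.62, 5.48 and 5.76 in MS mice 5.3, 7.1, 7.2 and 7.6, against 5.82, 5.46, 5.65 and 5.83 in control mice 6.2, 8.2, 8.4 and 8.5. The 2 groups covered almost the same range, with MS 7.2 and control 8.2 at the low end. The means were 5.67 ± 0.15 in MS mice and 5.69 ± 0.18 in control mice (SD, n = 4 each), and the log2 fold change was -0.02 (SE 0.11, 95% interval -0.27 to 0.23, adjusted p = 0.991 with limma). Like Pomc, Cartpt differed in sign between the rows, with 0.09 in row 1 and -0.14 in row 2. Pomc and Cartpt had a Pearson's r of 0.660 over the 8 mice (exact permutation p = 0.0834, adjusted p = 0.208) and a rho of 0.762 (exact permutation p = 0.0368, adjusted p = 0.184), so that relation did not pass the test either. Without controls 8.5 and 6.2, r was 0.405.

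The remaining pairs joined the 2 neuron types. Agrp with Pomc had an r of 0.458 (exact permutation p = 0.260, adjusted p = 0.434), a rho of 0.429 (exact permutation p = 0.299, adjusted p = 0.499) and an r of 0.407 without MS 7.6 and 7.2. Npy with Pomc had an r of -0.08 (exact permutation p = 0.840, adjusted p = 0.840), a rho of -0.29 (exact permutation p = 0.501, adjusted p = 0.501) and an r of -0.77 without the same 2 mice. Neither of these relations passed the test.

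**Figure D3:**
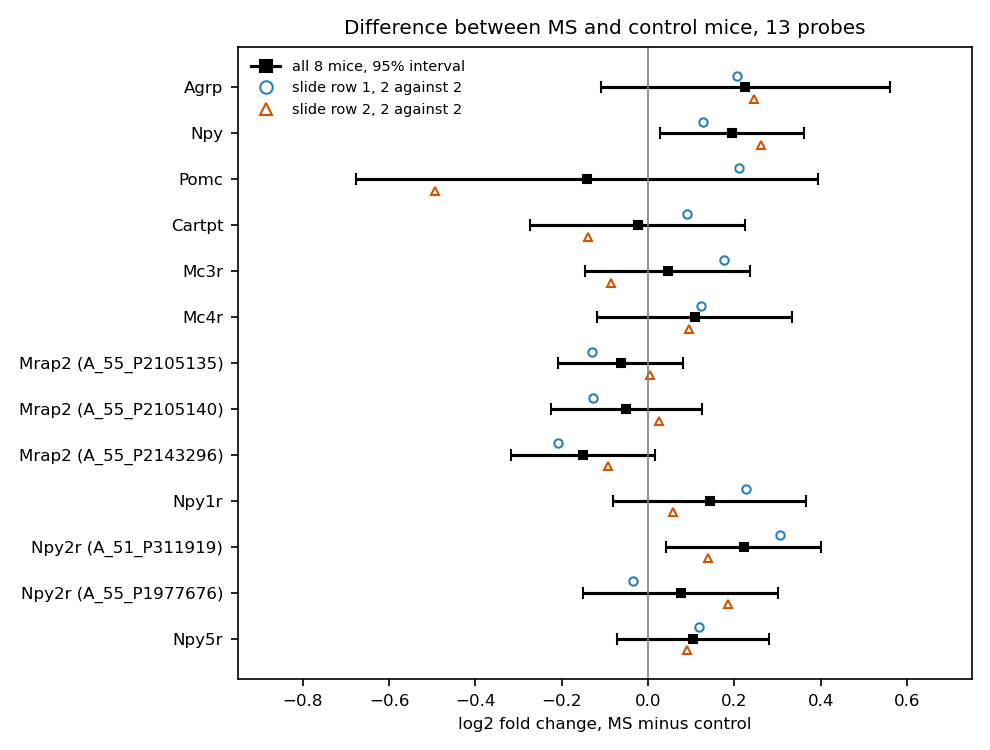
Log2 fold change of MS over control for the 13 probes (x axis), with the gene on the y axis and the probe where a gene has several. Black squares and bars give the difference over all 8 mice with its 95% interval, blue circles the difference in slide row 1 and orange triangles that in row 2, each from 2 against 2 mice. The intervals of Npy and of 1 Npy2r probe lie above 0, and Pomc is at 0.21 in row 1 and -0.49 in row 2.

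The receptors for melanocortins differed little between groups. Mc3r, the melanocortin receptor also found on arcuate neurons themselves, was at 1.49, 1.49, 1.50 and 1.47 in MS mice 5.3, 7.1, 7.2 and 7.6, against 1.47, 1.35, 1.29 and 1.66 in control mice 6.2, 8.2, 8.4 and 8.5. The MS mice were nearly equal, and the control mice lay on both sides of them. The log2 fold change was 0.04 (SE 0.08, 95% interval -0.15 to 0.24), with 0.17 in row 1 and -0.08 in row 2.

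Mc4r, the receptor through which melanocortins mainly restrain food intake, was read by a probe on the minus strand of chromosome 18. Its level was -1.37, -1.54, -1.72 and -1.75 in MS mice 5.3, 7.1, 7.2 and 7.6, against -1.81, -1.58, -1.74 and -1.67 in control mice 6.2, 8.2, 8.4 and 8.5. MS 5.3 and 7.1 were above all control mice and the other MS mice were within the control range. The log2 fold change was 0.11 (SE 0.10, 95% interval -0.12 to 0.33). It was 0.03 without MS 5.3, 0.07 without control 6.2 and 0.16 without MS 7.6, so its size rested on single mice.

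Mrap2, the accessory protein that modulates signaling of MC4R, was the only gene with 3 probes, and its means were lower in MS mice in all of them. Their positions in the transcript begin at bases 2015, 1258 and 782, so that they share a target and are no independent replicates. The probe that begins at base 2015 (A_55_P2105135) was at 2.27, 2.42, 2.47 and 2.39 in MS mice 5.3, 7.1, 7.2 and 7.6, against 2.42, 2.49, 2.51 and 2.39 in control mice 6.2, 8.2, 8.4 and 8.5. These groups overlapped, with MS 5.3 the lowest mouse, and the log2 fold change was -0.06 (SE 0.06, 95% interval -0.21 to 0.08). The middle probe (A_55_P2105140) differed by -0.05 (SE 0.08), again with MS 5.3 the lowest. Without MS 5.3 these differences were -0.02 for A_55_P2105135 and -0.00030 for A_55_P2105140, so the lower means of both rested on that mouse. The probe that begins at base 782 (A_55_P2143296) was at -1.76, -1.81, -2.00 and -1.93 in MS mice 5.3, 7.1, 7.2 and 7.6, against -1.74, -1.64, -1.71 and -1.82 in control mice 6.2, 8.2, 8.4 and 8.5. Here 3 of 4 control mice lay above all MS mice, and control 8.5 lay among them. The log2 fold change was -0.15 (SE 0.07, 95% interval -0.32 to 0.02, limma p = 0.0701 before and 0.976 after adjustment, exact permutation p = 0.0857).

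The NPY receptors had a higher mean in MS mice for all 4 probes, and none passed the test. Npy2r encodes the Y2 receptor, which on NPY neurons acts as an inhibitory autoreceptor and also binds the gut peptide PYY. Its brighter probe (A_51_P311919), with the printed AATAAA, was at 0.17, 0.10, -0.05 and -0.09 in MS mice 5.3, 7.1, 7.2 and 7.6, against -0.14, -0.18, -0.31 and -0.14 in control mice 6.2, 8.2, 8.4 and 8.5. Every MS mouse lay above every control mouse, with 0.04 log2 units between MS 7.6, the lowest MS mouse, and control 6.2, the highest control mouse. The means were 0.03 ± 0.12 in MS mice and -0.19 ± 0.08 in control mice (SD, n = 4 each), a 1.17-fold difference (log2 0.22, SE 0.08, 95% interval 0.04 to 0.40). The limma p was 0.0215 before and 0.976 after adjustment, and the exact permutation test gave p = 0.0286, the smallest that 70 assignments of 4 against 4 mice allow. All MS values above all control values were seen in 1.02% of the tested probes. The difference was 0.30 in row 1 and 0.14 in row 2, and 0.19 without MS 5.3 and 7.2 (unadjusted p = 0.0840 with limma). In the deposited log2 table of the authors the groups overlapped for this probe, with a log2 fold change of 0.18 (unadjusted p = 0.0624 with limma).

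The second probe of Npy2r (A_55_P1977676), which begins at base 1706 of the transcript against base 2931 for the brighter one, did not show the same order of mice. It was at -2.37, -2.49, -2.65 and -2.20 in MS mice 5.3, 7.1, 7.2 and 7.6, against -2.59, -2.54, -2.41 and -2.47 in control mice 6.2, 8.2, 8.4 and 8.5. MS 7.2 was the lowest mouse and MS 7.6 the highest, so the groups overlapped. The log2 fold change was 0.08 (SE 0.10, 95% interval -0.15 to 0.30), with -0.04 in row 1 and 0.19 in row 2. It was 4.6e-05 without MS 7.6, 0.05 without control 6.2 and 0.15 without MS 7.2. The difference between the probes was not tested.

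Npy1r and Npy5r encode the Y1 and Y5 receptors, through which NPY stimulates feeding, and lie beside each other on chromosome 8 on opposite strands. Npy1r was at 1.37, 1.16, 1.28 and 1.34 in MS mice 5.3, 7.1, 7.2 and 7.6, against 0.98, 1.10, 1.10 and 1.40 in control mice 6.2, 8.2, 8.4 and 8.5. Npy5r was at -1.08, -1.14, -1.11 and -1.09 in MS mice 5.3, 7.1, 7.2 and 7.6, against -1.37, -1.23, -1.19 and -1.03 in control mice 6.2, 8.2, 8.4 and 8.5. For both genes the 4 MS mice lay between the 3 lower control mice and control 8.5, which was the highest mouse, and control 6.2 was the lowest. The log2 fold change was 0.14 (SE 0.10, 95% interval -0.08 to 0.36) for Npy1r and 0.10 (SE 0.08, 95% interval -0.07 to 0.28) for Npy5r. Without control 8.5, the difference of Npy1r was 0.23, over 1.5 times as large, and that of Npy5r was 0.16, also over 1.5 times. Without control 6.2, the lowest mouse, the differences were 0.09 and 0.05, both over 1.5 times smaller.

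**Figure D4:**
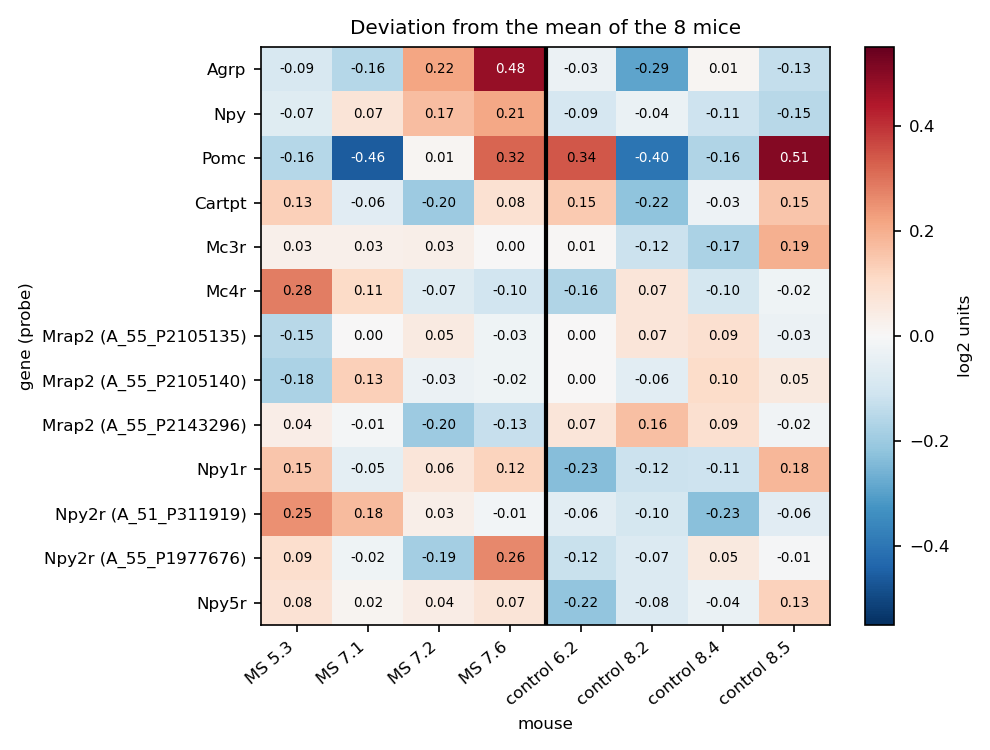
Deviation of each mouse from the mean of all 8 mice (log2 units, color scale and printed values) for the 13 probes in rows, with MS mice in the left 4 columns and control mice in the right 4. Control 8.5 was the highest mouse for 5 of the 13 probes and MS 7.6 for 3, and the lowest values were spread over all mice but MS 7.6.

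The highest and lowest values were counted by mouse, and whether any mouse recurs more often than others was not tested. Control 8.5 was highest of the 8 for 5 of the 13 probes, those of Pomc, Cartpt, Mc3r, Npy1r and Npy5r, and MS 7.6 for 3, those of Agrp, Npy and 1 probe of Npy2r. Control 6.2 was lowest for 3 probes, those of Mc4r, Npy1r and Npy5r, while MS 5.3, MS 7.2, control 8.2 and control 8.4 were each lowest for 2, and MS 7.1 and control 8.5 each for 1. The median SD within groups was 0.128 log2 units for the leading probes of the 10 genes, against 0.137 over all tested probes.

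Genes around this system were counted by list, each by its brightest tested probe, and no gene of any list passed the test. Some had further tested probes whose values are not given, among them Atrnl1, Mme, Insr, Stat3, Pcsk2 and Cpe. Of 18 genes of melanocortin signaling and precursor processing, 15 were tested, with 7 above and 8 below 0 and a median log2 fold change of -0.0067. Atrnl1, a relative of the attractin protein that acts with agouti, had the smallest p among those above 0 (log2 fold change 0.16, SE 0.06, limma p = 0.0294 before and 0.976 after adjustment, exact permutation p = 0.0286), and its MS values, 1.008 to 1.172, lay just above the control values, 0.846 to 1.007. Mc5r, a melanocortin receptor mainly of peripheral tissues, had the smallest p among those below 0 (-0.18, SE 0.10, limma p = 0.108 before and 0.976 after adjustment, exact permutation p = 0.143). The convertases Pcsk1 and Pcsk2, which cut the POMC precursor, had log2 fold changes of -0.05 and -0.0067, and Cpe, the carboxypeptidase that trims the cut ends, of 0.08. Of 6 genes related to the NPY family and its breakdown, 4 were tested, 3 above and 1 below 0, with a median of 0.03. Mme, the peptidase neprilysin, had a log2 fold change of 0.31 (SE 0.13, limma p = 0.0369 before and 0.976 after adjustment, exact permutation p = 0.0857), and Dpp4, the enzyme that trims NPY and PYY, of -0.13 (SE 0.43).

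The hormone receptors and signals that act on arcuate neurons varied less. All 11 genes were tested, 2 above and 9 below 0, with a median of -0.04 and a range of -0.09 to 0.10. Insr, the insulin receptor, was at 0.10 (SE 0.13) and Stat3, which carries the leptin signal, at -0.09 (SE 0.08). Of 15 factors of arcuate development and identity, 14 were tested, 6 above and 8 below 0, with a median of -0.06. Bsx, a factor that drives Agrp and Npy in mice, had a log2 fold change of 0.24 (SE 0.11, limma p = 0.0608 before and 0.976 after adjustment, exact permutation p = 0.0857), with -4.89 to -4.71 in MS mice and -5.31 to -4.79 in control mice.

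Among 8 genes listed for the paraventricular nucleus, the main target of these neurons, 4 were above and 4 below 0, with a median of -0.0026. They were read in the whole dissected HT, and which nucleus their signal came from was not tested. Bdnf, a neurotrophin, was at 0.19 (SE 0.08, limma p = 0.0454 before and 0.976 after adjustment, exact permutation p = 0.0857) and Crh, corticotropin-releasing hormone, at -0.33 (SE 0.15, limma p = 0.0567 before and 0.976 after adjustment, exact permutation p = 0.114). Crh was lowest in MS 7.2 and MS 5.3, the mice low in Hcrt, at -1.57 and -1.34. MS 7.1 and 7.6, at -1.21 and -1.13, lay inside the control range of -1.25 to -0.64. The 6 markers of other arcuate neurons were 4 above and 2 below 0, with a median of 0.07. Sst, the somatostatin gene, which is expressed in several HT nuclei, was at -0.20 (SE 0.06, limma p = 0.0130 before and 0.976 after adjustment, exact permutation p = 0.0286) with MS values of 5.030 to 5.240 just below control values of 5.245 to 5.399. Slc6a3, the dopamine transporter, was at 0.27 (SE 0.12, limma p = 0.0488 before and 0.976 after adjustment, exact permutation p = 0.0571). Beside them, the 4 tanycyte genes had a median of 0.08, and the log2 of their summed level was 1.96 to 2.55 in MS mice and 2.03 to 2.46 in control mice.

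The genes most like Agrp and Pomc over the 8 mice were searched among 16605 genes with 1 probe each, as a description over mice that share a slide. The highest r of so many genes over 8 mice is high by selection alone, and none of these relations was tested. For Agrp they were Selenok, an endoplasmic reticulum selenoprotein (r = 0.970), Laptm4b, a lysosomal membrane protein (r = 0.959), and Slc2a1, the glucose transporter GLUT1 (r = 0.958), with log2 fold changes of 0.05, 0.08 and 0.09. For Pomc they were Gna14, a G protein subunit (r = 0.975), Klhl31 (r = 0.970) and Zfand6 (r = 0.965), with log2 fold changes of -0.04, -0.05 and -0.0062.

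**Figure D5:**
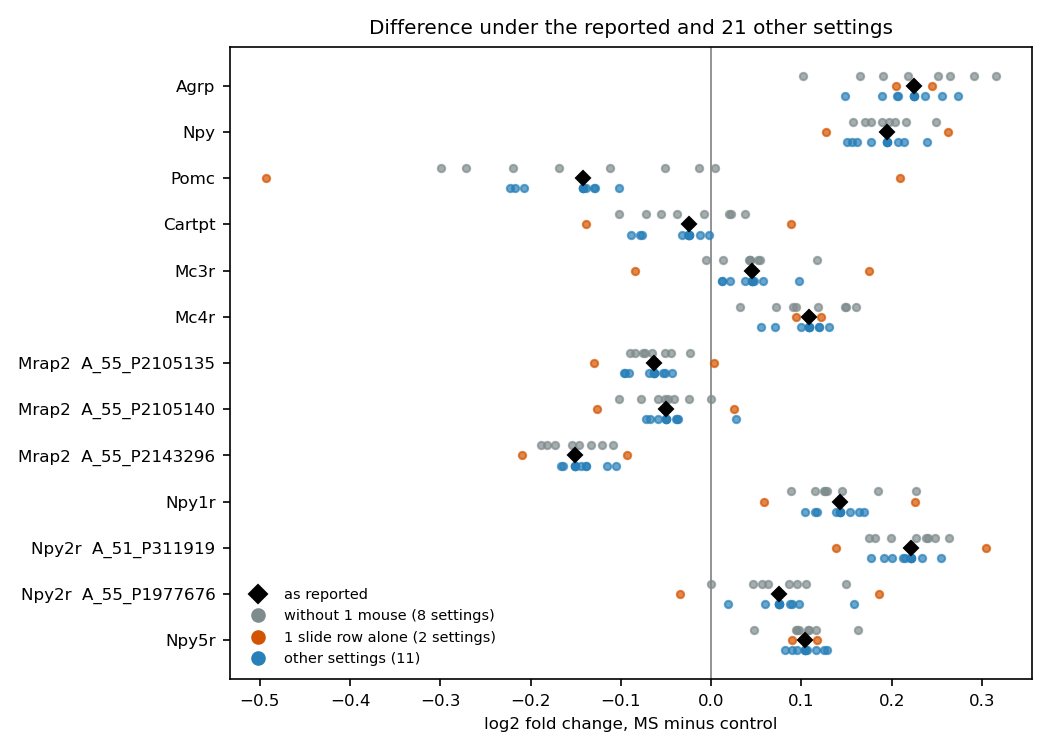
Log2 fold change of MS over control for the 13 probes (x axis) as reported (black diamonds), without 1 mouse at a time (gray), in 1 slide row alone (orange) and under the other settings (blue), with probes on the y axis. Agrp, Npy, Mc4r, Npy1r, Npy5r and the Npy2r probe A_51_P311919 stay above 0 under all 21 settings. The lowest value is 0.10 for Agrp and 0.13 for Npy. Mrap2 A_55_P2143296 stays below 0, and the other probes, Pomc among them, lie on both sides of 0.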

How the data were processed

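The HT arrays of 8 mice were used, 4 MS and 4 control, grouped by sample title. The authors deposited each array's scanner output, made with Agilent Feature Extraction 10.10.1.1, in which the processed intensity of a spot has the background subtracted. The deposited series table holds log2 values, for which the processing notes name limma and whose normalization the sources used here do not state. The headers give build mm9 and an array design other than that in the methods.

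Without control and outlier spots, log2 processed intensities were averaged per probe and set relative to each array's 75th percentile. Probes well above background on 4 or more of the 8 arrays, 37313 in all, were tested with limma 3.58.1 in R 4.3.3 (lmFit, eBayes, two-sided, Benjamini-Hochberg over all of them, threshold 0.05), MS minus control. The script was tested on simulated data. Exact permutation tests went through all 70 assignments of the mice to groups, or, for correlations, all pairings of the 8 mice (NumPy 2.4.6). The number of arrays limits the precision. Members, lists and tests were chosen with earlier results of these data known. The text names every member, in each pathway list the 1 gene with the smallest p above and below 0, and the 3 genes most like Agrp and most like Pomc over the mice, except 1 list gene that is not reported here. Pcsk1, Pcsk2, Cpe, Hcrt, Pmch, Trh, Nkx2-1, Gh, Prl, Tbx19, Sst and Slc6a3 were named outside that rule, after their values were seen. Alternatives were quantile or median scaling, normexp (offset 50), no filter or a stricter filter on dim probes, the deposited table, slide row or number before the dot as a block, array weights, another variance model, each slide row alone and each mouse left out. Leaving out MS 5.3 and 7.2 together was added after seeing the data. NAc, mPFC and other experiments were not analysed here.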

Additional observations from a re-analysis of the deposited data

Results flagged for a closer look

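Of the 28 sets of 4 mice checked for a lone value, over all probes and the pituitary level, 1 stood out, where chance gives about 1 in 20. In the MS group, Mc3r in MS 7.6 was 1.465, below the next value of 1.492 and the highest of 1.496, a gap of 0.877 of the whole range. That range is small beside the control values, 1.29 to 1.66.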

How the results depend on the processing

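Over 21 alternative settings, 261 of 273 log2 fold changes of the 13 probes kept their direction, and no member passed the adjusted test in any of them (smallest adjusted p = 0.466, Npy, random block by the number before the dot). The filters on dim probes, slide row as a block and the other variance model left the fold changes as reported. Settings with fewer mice reuse part of the same values. The count of kept directions is thus no measure of how firm they are. Agrp stayed at 0.10 to 0.32, Npy at 0.13 to 0.26 and the brighter Npy2r probe at 0.14 to 0.30. Mc4r stayed at 0.03 to 0.16, Npy1r at 0.06 to 0.23, Npy5r at 0.05 to 0.16 and Mrap2 A_55_P2143296 at -0.21 to -0.09. In slide row 1 alone Pomc was 0.21, Cartpt 0.089 and Npy2r A_55_P1977676 -0.035. In row 2 alone Mc3r was -0.085, Mrap2 A_55_P2105135 0.0033 and Mrap2 A_55_P2105140 0.026, and the last was 0.028 without MS 5.3 and MS 7.2. Leaving out 1 mouse gave -0.30 to 0.0037 for Pomc, above 0 without control 8.5, -0.10 to 0.038 for Cartpt, at 0.038 without MS 7.2, 0.020 without control 6.2 and 0.022 without control 8.5, and -0.0052 to 0.12 for Mc3r, below 0 without control 8.4. The count of member probes whose groups did not overlap, 1 as reported, was 0 in the deposited table. It was 7 in row 1 alone and 4 in row 2 alone, each with 2 against 2 mice, and 2 without MS 5.3 and MS 7.2. With 1 mouse left out it was 1 to 4 (2 without MS 5.3, 2 without control 8.2, 4 without control 8.5). Groups of fewer mice overlap less often by construction, and the share over all tested probes was not counted in these settings. Their counts are thus no result about the members. The groups of the brighter Npy2r probe stayed apart in every setting but the deposited table. Leaving out mice or taking 1 row could not have changed this. The filters, blocks, array weights and variance model used the same values, so they could not either. Only quantile and median scaling, normexp and the deposited table could, and of these the deposited table did. The count of all probes past the test, 0 as reported, was 1 with the random block (block correlation -0.199) and 1 in row 2 alone, neither a member, and 1220 had an unadjusted p under 0.05. No paired analysis was possible because the mice of the groups share no number. With 4 mice a group the intervals still allow Agrp and Pomc differences of up to 0.56 and -0.68 on the log2 scale, and array brightness (566 intensity units in MS 7.6) was not tested as a cause.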
